A study of Homo sapiens with 12 samples.

Results

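The genes described here are 35 genes of endoplasmic reticulum (ER) protein folding and of the unfolded protein response (UPR), taken by name from the 57500 genes of a raw RNA sequencing count table, and none of the 35 names occurred on more than 1 row. They were grouped by role into 5 chaperones, 4 co-chaperones, 5 protein disulfide isomerases, 2 secreted ER stress proteins, 7 stress sensors, transcription factors and feedback regulators, 8 genes of ER-associated degradation and 4 genes of the translocon. The RNA came from MRC5, a single line of human embryonic lung fibroblasts, in 4 groups of 3 libraries. Prol cells were proliferating and not irradiated. Sen(IR) cells were made senescent with 20 Gy of X-rays, and Sen(IR+UK5099) and Sen(IR+CTPI2) cells received the same irradiation and then an inhibitor from day 1 after it. The methods of the study place collection of irradiated cells between days 10 and 12. They also state that the inhibitors stayed in the medium for 12 days, so the exact day of collection of each irradiated group is uncertain. UK5099 blocks the mitochondrial pyruvate carrier and was used at 100 µM, and CTPI2 blocks the mitochondrial citrate carrier SLC25A1 and was used at 15 or 30 µM, without a statement of which dose was sequenced. No vehicle is named for the Sen(IR) cells in the sources used here.

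Proteins that enter the ER are folded there by chaperones and disulfide isomerases, and chains that fail to fold are returned to the cytosol and degraded. When unfolded chains build up, 3 sensors in the ER membrane respond. IRE1, encoded by ERN1, splices the mRNA of the transcription factor XBP1, ATF6 is cleaved to release a transcription factor, and PERK, encoded by EIF2AK3, slows translation until GADD34, encoded by PPP1R15A, reverses that step. Fibroblasts carry a large secretory load of collagen, and senescent fibroblasts secrete many further proteins. Counts per gene do not separate the spliced from the unspliced XBP1 transcript, and neither cleavage of ATF6 nor phosphorylation by PERK is visible in them.

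ATF6 and XBP1 are known to act on short promoter elements, so these are shown first for the members whose promoters held them. Promoter windows of 300 bases (250 before and 50 after the start of transcription, RefSeq, GRCh38.p14) were found for 32 of the 35 genes. The windows were searched on both strands for the ER stress response element ERSE (CCAAT, then 9 bases, then CCACG), for ERSE-II (ATTGG, 1 base, CCACG) and for the core of the unfolded protein response element, TGACGTGG. Excerpts from 7 of the members that held ERSE or ERSE-II follow, 5′ to 3′ on the strand of the gene, with the letters of the motif in capitals (a copy on the opposite strand reads as the reverse complement, CGTGG then ATTGG for ERSE and CGTGG then CCAAT for ERSE-II, and in HYOU1 the capitals cover an ERSE-II that overlaps the core element).
HSPA5: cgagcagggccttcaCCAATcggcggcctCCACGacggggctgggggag
CALR: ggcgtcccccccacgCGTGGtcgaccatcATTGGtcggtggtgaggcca
CANX: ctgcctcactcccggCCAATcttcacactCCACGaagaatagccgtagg
XBP1: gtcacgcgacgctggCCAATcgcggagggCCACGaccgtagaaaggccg
HYOU1: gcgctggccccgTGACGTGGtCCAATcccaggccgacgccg
SDF2L1: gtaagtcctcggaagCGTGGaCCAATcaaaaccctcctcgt
HERPUD1: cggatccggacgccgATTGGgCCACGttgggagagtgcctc

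In that order these lie at chr9:125241376-125241424 (minus strand), chr19:12938369-12938417 (plus), chr5:179698763-179698811 (plus), chr22:28800588-28800636 (minus), chr11:119057365-119057405 (minus), chr22:21642099-21642139 (plus) and chr16:56932010-56932050 (plus). The motif began 66 bases before the start of transcription in HSPA5, 52 in XBP1 and 117 in HERPUD1. ERSE was present in 7 members (HSPA5, HSP90B1, CALR, CANX, PDIA6, CRELD2 and XBP1) and in 27 of 35116 promoter windows in all (0.0769%). Members were counted by gene and the background by window, and the windows belonged to 27305 genes, so the 2 counts differ in unit. CANX, for example, held the same copy in overlapping windows. HSP90B1 held 2 copies. ERSE-II was present in HYOU1 (2 copies), SDF2L1 and HERPUD1 and in 19 windows (0.0541%), and the core element in HYOU1 and SSR3 and in 256 windows (0.729%). A match of letters describes the sequence, and no binding was measured in these libraries.

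Library totals were 20597736 to 28245693 counts, and replicate libraries differed by more than sampling noise (chi-square per gene 2.28 to 13.6), so no library was merged with another. Levels are given as CPM, that is counts scaled to a common library size with factors from the trimmed mean of M-values (TMM). Differences were tested in edgeR over the 16251 genes that passed the filter on low counts, and a gene was called higher or lower when its Benjamini-Hochberg adjusted p was below 0.05 and its absolute log2 fold change above 0.5. Of the 35 genes, 34 were tested. DERL3, a derlin of ER-associated degradation, failed the filter, with 39 counts over the 12 libraries, no more than 10 in any of them and 0 in all 3 Sen(IR+UK5099) libraries, and 77.0% of its exon bases overlap SMARCB1. Because the strand used in counting is not stated, reads of overlapping exons cannot be told apart, which concerns PDIA6 (25.2% of exon bases), SSR3 (20.8%), PDIA5 and DNAJB11 (14.2% each) more than the other tested members. The study calls its RNA sequencing replicates independent experiments or conditions, and the labels do not say whether they were separate cultures, so p-values measure the spread between these libraries.

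The libraries carried fibroblast RNA. The summed level of 9 fibroblast markers was 21298 to 25338 CPM in Prol, 20550 to 21131 in Sen(IR), 18149 to 19925 in Sen(IR+CTPI2) and 10895 to 11387 in Sen(IR+UK5099), while 11 markers of epithelial, endothelial and immune cells summed to 2.04 to 2.3 CPM in Prol, 6.64 to 7.01 in Sen(IR), 6.62 to 9.0 in Sen(IR+CTPI2) and 5.74 to 6.33 in Sen(IR+UK5099). KRT5 and KRT14 were at 0 in all Prol, Sen(IR) and Sen(IR+CTPI2) libraries, and CD14 was called higher in Sen(IR) than in Prol (log2 fold change 4.09). Of the fibroblast markers 5 of 9 were called lower in Sen(IR+UK5099) than in Sen(IR), among them the collagen genes COL3A1 (log2 fold change -1.75) and COL1A1 (-1.56). A further 1 passed the test below the fold limit and 3 did not pass, and 2 of the 9 values were positive. The 7 proliferation markers summed to 1702 to 1906 CPM in Prol, 171 to 177 in Sen(IR), 173 to 179 in Sen(IR+CTPI2) and 85.1 to 86.0 in Sen(IR+UK5099). These markers moved with the comparisons below and their part in the results was not tested. In bulk libraries fewer cells of a type and less RNA per cell cannot be told apart.

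The 35 genes together held different shares of the library in the 4 groups. Of each library's counts, the Prol cells gave them 1.60 to 1.65%, Sen(IR) 1.53 to 1.56%, Sen(IR+CTPI2) 1.40 to 1.47% and Sen(IR+UK5099) 1.22 to 1.27%, and these ranges did not overlap. Abundant members weigh most in such a sum, so it does not describe the members one by one. From Prol to Sen(IR) the mean CPM of HSP90B1 went from 2974 to 2292, of CALR from 2573 to 1994 and of HSPA5 from 1861 to 1512. That of P4HB went from 1135 to 1661, and of the 34 tested members 14 had a positive log2 fold change and 20 a negative one. Per length, in RPKM (the CPM divided by the exon length in kilobases), calreticulin (CALR), BiP (HSPA5) and GRP94 (HSP90B1) were the 3 most abundant members in every group. That length merges all annotated exons of a gene and can exceed the length of its mRNA, and the ranking depends on it. By mean CPM in Sen(IR), CANX (1839) and P4HB (1661) stood above HSPA5 (1512). CALR stood at 918 ± 31.4 RPKM in Prol (mean ± SD, n = 3), 712 ± 12.7 in Sen(IR), 631 ± 24.8 in Sen(IR+CTPI2) and 498 ± 21.4 in Sen(IR+UK5099). HSPA5 followed at 285 ± 12.4, 232 ± 6.58, 207 ± 10.4 and 151 ± 4.66 RPKM in the same order of groups. At the other end of the RPKM values, the sensor genes EIF2AK3 and ERN1 were the lowest of the tested members in each group. They had 1.48 ± 0.0245 and 0.571 ± 0.0483 RPKM in Prol, and 1.95 ± 0.123 and 1.46 ± 0.0553 RPKM in Sen(IR). Their merged exon lengths were 20691 and 19153 bases. By CPM, SDF2L1 was instead the lowest tested member in each group, with a mean of 8.87 in Prol and 4.06 in Sen(IR).

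**Figure D1:**
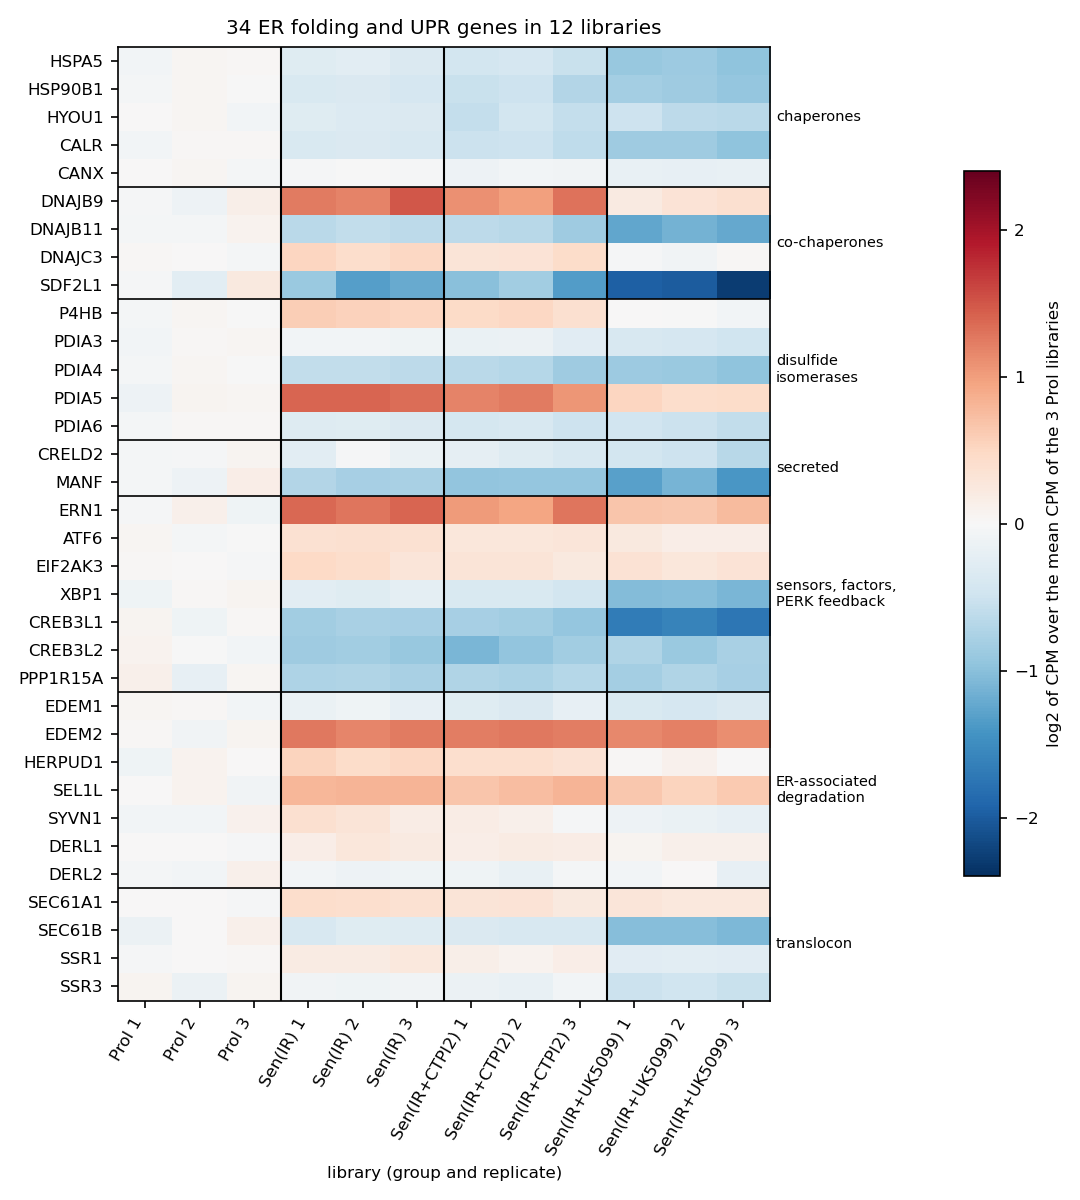
Level of each of the 34 tested genes (rows, ordered by role) in each of the 12 libraries (columns, by group and replicate), as the log2 of its CPM over the mean CPM of the 3 Prol libraries. Replicates share their colours, PDIA5, ERN1, DNAJB9 and EDEM2 are the warmest rows in Sen(IR), and the Sen(IR+UK5099) columns are colder than the Sen(IR) columns for most rows, with SDF2L1 the coldest.

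The first comparison asks how irradiation-induced senescence stood against proliferation. Of the 5 chaperones 4 passed the test with lower levels below the fold limit in Sen(IR) and calnexin did not pass, while ERN1, the ER chaperone partner DNAJB9, the isomerase PDIA5 and the mannosidase-like degradation factor EDEM2 were more than doubled in mean CPM. Of the 34 members 6 were called higher and 7 lower, against 24.8% called higher and 22.4% called lower of all genes tested. At any fold, 14 were positive and 15 negative with an adjusted p below 0.05 (34.1% and 34.5% of all genes). The median log2 fold change of the members was -0.09 against 0.01 over all genes, and for 29 of 34 members the 3 Sen(IR) libraries did not overlap the 3 Prol libraries, which held for 70.9% of all genes. Upper-quartile scaling raised the median of all genes to 0.14 and gave 10 members higher and 6 lower.

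Among the chaperones, HSPA5, the main Hsp70 of the ER and the standard readout of the UPR, had 1768, 1917 and 1898 CPM in the 3 Prol libraries and 1518, 1552 and 1467 CPM in the 3 Sen(IR) libraries. Every Sen(IR) library was below every Prol library, and the mean fell by 18.7% (log2 fold change -0.30, SE 0.0497, adjusted p = 1.43e-05), a change below the fold limit. HSP90B1 and CALR fell by more on the log2 scale, with values of -0.38 (SE 0.053) and -0.37 (SE 0.0479). HYOU1, a large Hsp70-like chaperone and exchange factor, stood at -0.32 (SE 0.054). All 4 passed the test below the fold limit. Calnexin (CANX), the membrane-bound lectin chaperone, had a log2 fold change of -0.03 with a 95% interval of -0.12 to 0.06, and its 2 groups overlapped. Under upper-quartile scaling its value was 0.09.

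The co-chaperones split. DNAJB9, an ER J-domain protein known to hold IRE1 in check through BiP, rose from 40.4, 38.1 and 45.7 CPM in Prol to 98.3, 94.0 and 116 CPM in Sen(IR). The groups were far apart and the ratio of means was 2.48 (log2 fold change 1.31, SE 0.0867, adjusted p = 7.33e-12). DNAJC3, which restrains PERK, rose by 0.47 on the log2 scale (SE 0.052) and sat just under the fold limit, which upper-quartile scaling moved it past (0.59). In the other direction, DNAJB11, a J-domain partner of BiP for nascent chains, fell from 142 to 156 CPM to 93.7 to 97.2 CPM (log2 fold change -0.62, SE 0.0603). SDF2L1, which forms a complex with DNAJB11, had the largest fall of the members, from 8.70, 7.47 and 10.4 CPM to 4.80, 3.56 and 3.83 CPM. Its groups did not overlap, but it was scarce and its replicates were the most variable (log2 fold change -1.13, SE 0.162, adjusted p = 2.06e-06).

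PDIA5 showed the largest rise of the 34 members. This isomerase, known to activate ATF6, had 25.2, 28.6 and 28.3 CPM in Prol and 72.5, 72.1 and 69.1 CPM in Sen(IR), a ratio of means of 2.60 (log2 fold change 1.38, SE 0.0659, adjusted p = 2.19e-14). P4HB, both a disulfide isomerase and the beta subunit of collagen prolyl 4-hydroxylase, rose from 1099.9, 1172 and 1133 CPM to 1702, 1657 and 1623 CPM with no overlap (log2 fold change 0.55, SE 0.0475). The other isomerases were lower or did not pass. PDIA4 fell from 503 to 536 CPM to 335 to 346 CPM (log2 fold change -0.60), a call that upper-quartile scaling ended (-0.48). PDIA6 had a log2 fold change of -0.32, past the test and under the fold limit, and PDIA3, the partner of calnexin and calreticulin, one of -0.07 with an interval of -0.18 to 0.03. Of the secreted ER stress proteins, MANF fell from 120.4, 114 and 137 CPM to 76.0, 71.2 and 71.9 CPM (log2 fold change -0.76, SE 0.0709, adjusted p = 2.48e-09), whereas CRELD2 stood at 47.5 to 51.2 CPM in Prol and 41.2 to 47.6 CPM in Sen(IR), which overlapped (log2 fold change -0.15, adjusted p = 0.0774).

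All 3 sensor genes were higher in Sen(IR). ERN1 rose from 10.7, 11.9 and 10.1 CPM in Prol to 28.3, 26.7 and 28.7 CPM in Sen(IR), with every Sen(IR) library more than 2-fold above every Prol library (log2 fold change 1.36, SE 0.0929, adjusted p = 1.32e-11). ATF6 went from 124, 115 and 119 CPM to 154, 155 and 154 CPM, and EIF2AK3 from 31.1, 30.6 and 30.1 CPM to 42.6, 41.0 and 37.6 CPM. Neither pair of groups overlapped, and both genes passed the test below the fold limit (ATF6 log2 fold change 0.37, SE 0.0484, adjusted p = 4.75e-07; EIF2AK3 log2 fold change 0.40, SE 0.0638, adjusted p = 7.88e-06).

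The transcription factor genes XBP1, CREB3L1 and CREB3L2 were lower. XBP1, the target of IRE1 splicing, had 152, 168 and 171 CPM in Prol and 137, 134 and 140.0 CPM in Sen(IR), with the groups apart and a change below the fold limit (log2 fold change -0.26, SE 0.053, adjusted p = 0.000196). CREB3L1 and CREB3L2, relatives of ATF6 that promote expression of secretory pathway and collagen genes, were both called lower. CREB3L1 fell from 384, 340.2 and 372 CPM to 206, 213 and 211 CPM (log2 fold change -0.80, SE 0.0545, adjusted p = 1.19e-11). CREB3L2 fell from 277, 258 and 249 CPM to 144, 146 and 139 CPM (log2 fold change -0.87, SE 0.0615, adjusted p = 2.5e-11). PPP1R15A, the feedback phosphatase subunit of the PERK arm, fell from 209, 169 and 199 CPM to 116, 117 and 113 CPM, so that the Prol libraries varied more than the Sen(IR) libraries yet stayed above all of them (log2 fold change -0.75, SE 0.0631, adjusted p = 4.96e-10).

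ER-associated degradation was the role with the highest median log2 fold change, 0.29 over its 7 tested members, with 2 called higher (28.6%, against 24.8% of all genes) and 0 lower. EDEM2, which starts mannose trimming of glycoproteins bound for degradation, rose from 30.4, 27.9 and 31.0 CPM to 71.6, 66.9 and 70.7 CPM (log2 fold change 1.23, SE 0.0594, adjusted p = 2.66e-14). SEL1L, the adaptor of the HRD1 ubiquitin ligase, rose from 217 to 245 CPM to 403 to 409 CPM (log2 fold change 0.81, SE 0.0542). HERPUD1, which organises the same complex, stood at 0.49 on the log2 scale, at the fold limit, and was past it under DESeq2-type size factors (0.51) and upper-quartile scaling (0.61). SYVN1, the HRD1 ligase itself (0.29), and DERL1 (0.21) passed the test with small positive log2 fold changes, EDEM1 (-0.15) with a small negative one, and DERL2 (-0.09, interval -0.23 to 0.04) did not pass. In the translocon SEC61A1, the channel itself, had a positive log2 fold change of 0.40 and its small subunit SEC61B a negative one of -0.33, while SSR1 (0.22) passed and SSR3 (-0.09) did not.

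**Figure D2:**
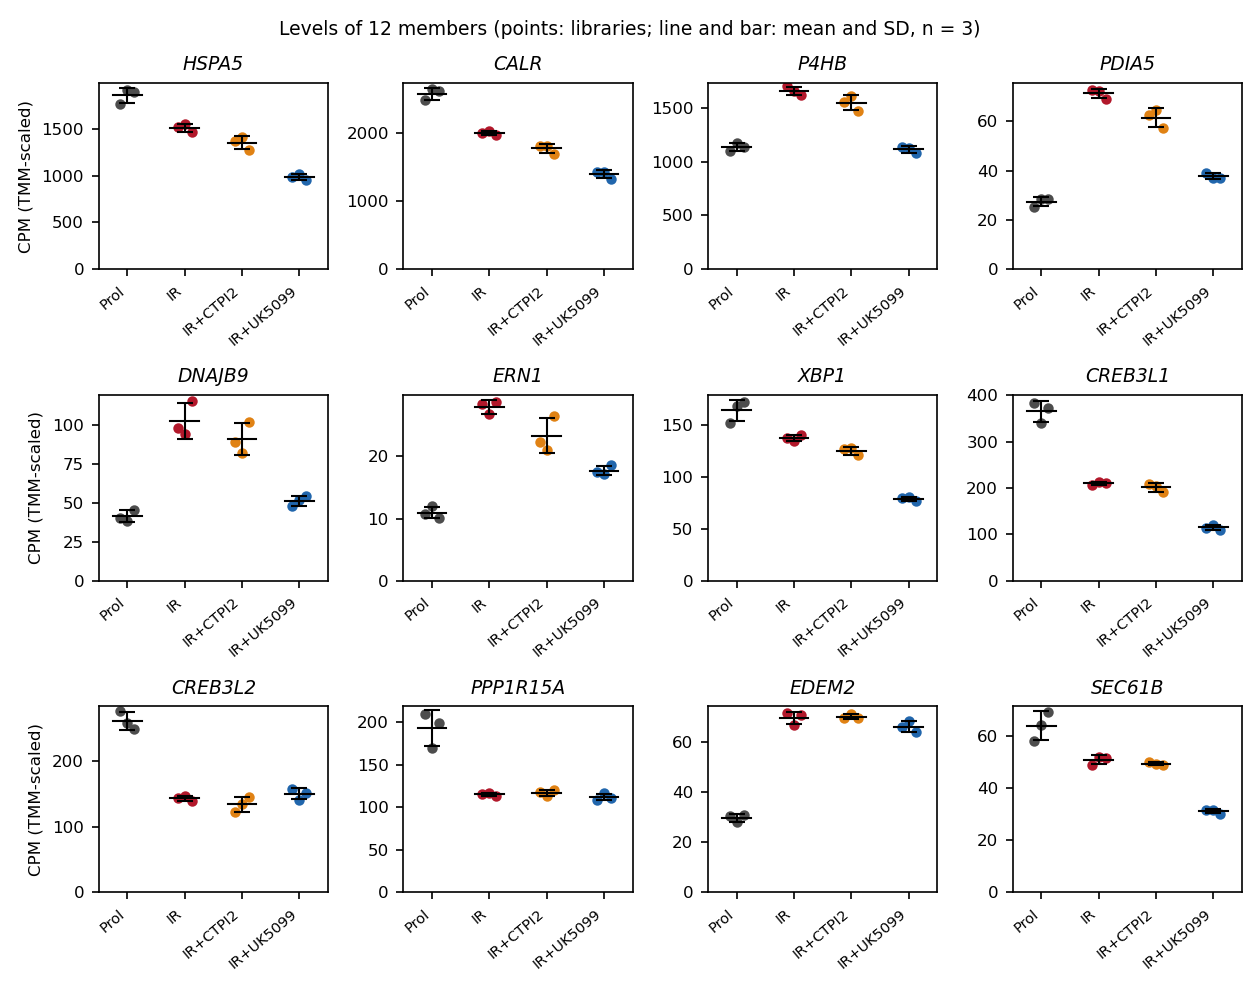
CPM of 12 members in the 4 groups, with each panel's vertical axis starting at 0, points for libraries, and a line and bar for the mean and SD (n = 3). P4HB, PDIA5, DNAJB9 and ERN1 are high in Sen(IR) and lower in Sen(IR+UK5099), CREB3L2, PPP1R15A and EDEM2 did not pass the test between Sen(IR) and Sen(IR+UK5099), and HSPA5, CALR, XBP1, CREB3L1 and SEC61B are lowest in Sen(IR+UK5099).

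The second comparison asks what inhibition of the pyruvate carrier did in senescent cells. The members moved in one direction: 12 were called lower in Sen(IR+UK5099) than in Sen(IR) and 0 higher, against 12.1% lower and 8.76% higher of all genes. At any fold 28 of 34 passed the test with a negative value and 0 with a positive one, where 23.5% and 21.9% of all genes did so. Scarce genes pass at a small fold less easily than abundant ones, and here and elsewhere the shares of all genes were not matched to the members by level. The median log2 fold change was -0.43 for the members and 0.0099 for all genes, 32 of 34 members had a negative value, and 29 of 34 had no overlap between the groups (56.6% of all genes). An absolute log2 fold change above 1 was reached by DNAJB9 alone. The drop in the summed fibroblast markers given above was larger than the fall of most members, although 3 of the 9 markers did not pass the test. The part of that drop in the values of the members was not tested.

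All 5 chaperones passed the test. HSPA5 fell from 1518, 1552 and 1467 CPM in Sen(IR) to 988, 1016 and 955 CPM in Sen(IR+UK5099), and the mean fell by 34.8% (log2 fold change -0.62, SE 0.0499, adjusted p = 9.64e-10). CALR fell from 1959 to 2030.3 CPM to 1326 to 1431 CPM (log2 fold change -0.52, SE 0.048) and stood so near the fold limit that upper-quartile scaling (-0.497) and leaving out the third Sen(IR+UK5099) library (-0.48) ended its call. HSP90B1 at -0.49 was just inside the limit. HYOU1 (-0.27) and CANX (-0.16) had the smallest log2 fold changes of the role, so that the 5 chaperones spanned values from -0.62 to -0.16.

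The co-chaperones showed the lowest median of the roles, -0.76 over 4 genes. DNAJB9 fell from 98.3, 94.0 and 116 CPM to 47.9, 51.8 and 54.3 CPM, with no overlap (log2 fold change -1.0, SE 0.0852, adjusted p = 2.22e-09). SDF2L1 fell further below its already low Sen(IR) level, from 4.80, 3.56 and 3.83 CPM to 2.28, 2.23 and 1.82 CPM, with a wide interval of -1.35 to -0.55 (log2 fold change -0.95, SE 0.192, adjusted p = 0.00032). These 2 genes had opposite directions in Sen(IR) against Prol and the same direction here. DNAJB11 was also called (-0.58), and DNAJC3 sat on the fold limit at -0.50, past it under 7 of the other settings, among them DESeq2 (-0.51).

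The isomerases and secreted proteins were lower throughout. PDIA5 fell from 72.5, 72.1 and 69.1 CPM to 39.1, 36.9 and 37.0 CPM (log2 fold change -0.92, SE 0.064, adjusted p = 7.53e-11), and P4HB from 1702, 1657 and 1623 CPM to 1141, 1128 and 1079.8 CPM (log2 fold change -0.57, SE 0.0475). Neither gene's groups overlapped. PDIA3 (-0.34), PDIA4 (-0.30) and PDIA6 (-0.20) passed the test with smaller log2 fold changes, as did CRELD2 (-0.39). MANF was called at -0.51 on the log2 scale, a call lost under upper-quartile scaling (-0.49) and without the first Sen(IR) library (-0.48), the first Sen(IR+UK5099) library (-0.49) or the third (-0.44).

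Of the 7 sensors, factors and feedback regulators 3 were called lower (ERN1, XBP1 and CREB3L1), ATF6 passed below the fold limit, and EIF2AK3, PPP1R15A and CREB3L2 did not pass. ERN1 fell from 28.3, 26.7 and 28.7 CPM to 17.4, 17.2 and 18.6 CPM (log2 fold change -0.66, SE 0.088, adjusted p = 2.25e-06), and XBP1 from 137, 134 and 140.0 CPM to 79.4, 80.3 and 76.7 CPM (log2 fold change -0.80, SE 0.0542, adjusted p = 4.8e-11). In both genes the highest Sen(IR+UK5099) library was well below the lowest Sen(IR) library. CREB3L1 fell from 206, 213 and 211 CPM to 114, 121 and 110.3 CPM (log2 fold change -0.87, SE 0.0555, adjusted p = 1.72e-11), and ATF6 from 154, 155 and 154 CPM to 141, 133 and 133 CPM, below the fold limit (log2 fold change -0.19, SE 0.0482, adjusted p = 0.00301). EIF2AK3 had 42.6, 41.0 and 37.6 CPM in Sen(IR) and 38.7, 37.0 and 38.5 CPM in Sen(IR+UK5099), which overlapped (log2 fold change -0.09, SE 0.0627, adjusted p = 0.273, interval -0.22 to 0.04). PPP1R15A had 116, 117 and 113 CPM and 109, 116 and 111 CPM, again overlapping (log2 fold change -0.04, SE 0.0635, adjusted p = 0.686, interval -0.17 to 0.10). CREB3L2, unlike its relative CREB3L1, had a log2 fold change of 0.07 with an interval of -0.06 to 0.20. The difference between the paralogs was not itself tested.

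No degradation gene was called. HERPUD1 (-0.45), SYVN1 (-0.45), EDEM1 (-0.21) and SEL1L (-0.21) passed the test with log2 fold changes under the limit. EDEM2 had 66.2, 68.3 and 64.1 CPM in Sen(IR+UK5099) beside 71.6, 66.9 and 70.7 CPM in Sen(IR), a log2 fold change of -0.08 (interval -0.19 to 0.04), and DERL1 (-0.11) and DERL2 (0.01) did not pass either. DERL2 lay so close to 0 that its sign changed with the scaling. In the translocon SEC61B fell from 49.1, 52.2 and 51.7 CPM to 31.7, 31.7 and 30.3 CPM (log2 fold change -0.71, SE 0.066), SSR1 (-0.48) and SSR3 (-0.41) passed below the fold limit, and SEC61A1 (-0.13) passed with a small value.

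**Figure D3:**
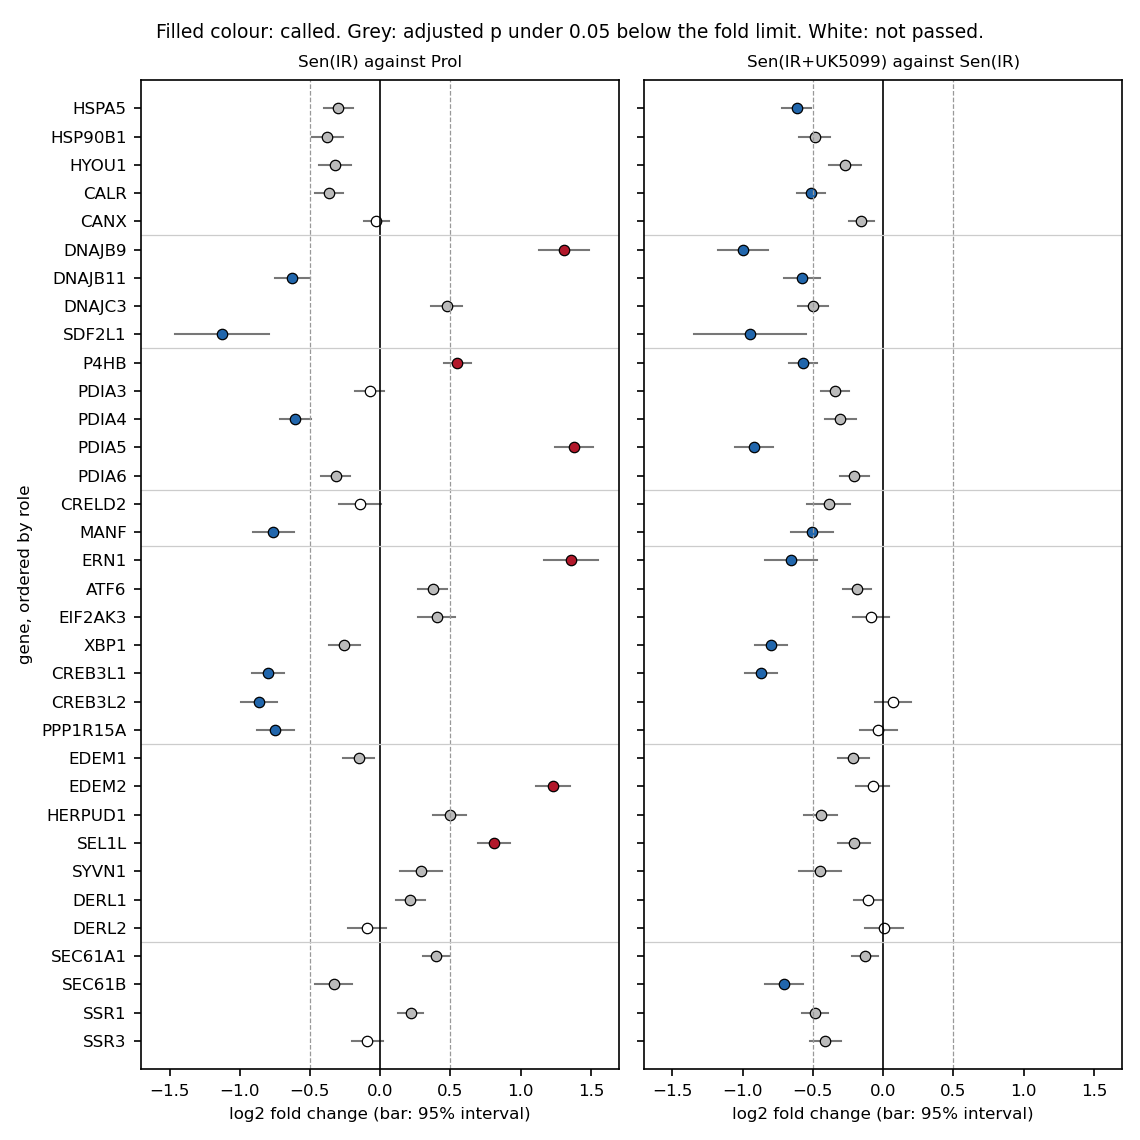
Log2 fold change of each tested member (points, ordered by role) with its 95% interval (bars) in Sen(IR) against Prol and in Sen(IR+UK5099) against Sen(IR), where dashed lines mark the fold limit of 0.5. The left panel holds 6 called rises and 7 called falls, and the right panel 12 called falls and no called rise.

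Both comparisons use the Sen(IR) libraries, so their values are not independent and are set side by side without a test between them. DNAJB9, ERN1, P4HB and PDIA5 were called higher in Sen(IR) and lower with UK5099, and CREB3L1, DNAJB11, MANF and SDF2L1 were called lower in both. EDEM2 was called higher in Sen(IR) and did not pass with UK5099, and CREB3L2 and PPP1R15A were called lower in Sen(IR) and did not pass with UK5099. HSPA5, CALR, XBP1 and SEC61B passed the test below the fold limit in Sen(IR) and were called lower with UK5099.

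Set directly against Prol, Sen(IR+UK5099) had 3 members called higher and 16 called lower, against 26.9% and 26.2% of all genes (4 higher and 12 lower under upper-quartile scaling). The members that had risen in Sen(IR) stood at different levels. P4HB had 1099.9 to 1172 CPM in Prol and 1079.8 to 1141 CPM in Sen(IR+UK5099), overlapping ranges with a log2 fold change of -0.02 (interval -0.12 to 0.07; 0.12 under upper-quartile scaling). DNAJB9 was above Prol by 0.31 on the log2 scale and PDIA5 by 0.46, both past the test and below the fold limit. ERN1 was called higher (log2 fold change 0.70, SE 0.0947, adjusted p = 7.4e-07), as was SEL1L (0.60), and EDEM2 had the highest value (log2 fold change 1.15, SE 0.0591, adjusted p = 5.49e-14).

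The 4 members called lower in both comparisons were the lowest against Prol. All groups were in the same fit, so each value here is close to the sum of the gene's values in those 2 comparisons. Their low place is therefore not a separate result. SDF2L1 fell by the largest amount of the 34 (log2 fold change -2.08, SE 0.173, adjusted p = 3.26e-10), followed by CREB3L1 (log2 fold change -1.67, SE 0.0559, adjusted p = 2.58e-17), MANF (log2 fold change -1.27, SE 0.0719, adjusted p = 3.47e-13) and DNAJB11 (log2 fold change -1.20, SE 0.0612, adjusted p = 4.95e-14). XBP1 (-1.06) and SEC61B (-1.04) were also at less than 50% of their Prol level. HSPA5 was called lower, from 1768 to 1917 CPM in Prol to 955 to 1016 CPM (log2 fold change -0.92, SE 0.0501, adjusted p = 1.82e-13). PPP1R15A (-0.78, beside -0.75 in Sen(IR)) and CREB3L2 (-0.80, beside -0.87) were called lower than in Prol, while ATF6 (log2 fold change 0.19, SE 0.0483, adjusted p = 0.00157) and EIF2AK3 (log2 fold change 0.31, SE 0.0633, adjusted p = 0.000124) were above Prol below the fold limit.

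The third comparison asks what inhibition of the citrate carrier did in senescent cells, and here no member was called. edgeR called 0 members higher and 0 lower, against 0.0185% and 0.148% of all genes, and 0 passed at any fold, where 0.400% of all genes passed with a negative value. DESeq2 also called 0, and 3 chaperones passed it at any fold: HSP90B1 (log2 fold change -0.21, adjusted p = 0.0232), HYOU1 (-0.21, adjusted p = 0.039) and CALR (-0.18, adjusted p = 0.0289). The same 3 genes passed below the fold limit in edgeR without the filter on low counts (adjusted p 0.00173 to 0.0424) and in the fit of these 2 groups alone (0.0196 to 0.0232). At an unadjusted p below 0.05, 18 of the 34 members were found, all with a negative value, where 4.44% of all genes were found with a negative value. That number was 9 without the first Sen(IR) library. The log2 fold changes were small, from -0.26 to 0.08 with a median of -0.11 (0.0032 over all genes), 31 of 34 were negative, and the lowest adjusted p was 0.123. The groups did not overlap for 19 members, against 15.1% of all genes.

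The 3 lowest values belonged to ERN1, PDIA5 and HSP90B1. HSP90B1 had 2304, 2338 and 2235 CPM in Sen(IR) and 2047, 2098 and 1818 CPM in Sen(IR+CTPI2), without overlap (log2 fold change -0.21, SE 0.053, adjusted p = 0.123). ERN1 had 28.3, 26.7 and 28.7 CPM and 22.3, 21.1 and 26.5 CPM, also without overlap, with 1 Sen(IR+CTPI2) library close to the Sen(IR) range (log2 fold change -0.26, SE 0.0866, adjusted p = 0.351). PDIA5 had 72.5, 72.1 and 69.1 CPM and 62.4, 64.6 and 57.2 CPM (log2 fold change -0.21, SE 0.0625, adjusted p = 0.219). In each of these the treated libraries lay below the untreated ones, and none passed the adjusted test.

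HYOU1 had 234, 227 and 226 CPM in Sen(IR) and 193, 211 and 193 CPM in Sen(IR+CTPI2) (log2 fold change -0.20, SE 0.0543, adjusted p = 0.148), and CALR 1994, 2030.3 and 1959 CPM and 1807, 1812 and 1689 CPM (log2 fold change -0.17, SE 0.0478, adjusted p = 0.172), both without overlap. HSPA5, with 1518, 1552 and 1467 CPM in Sen(IR) and 1374, 1411 and 1279.6 CPM in Sen(IR+CTPI2), differed by -0.16 on the log2 scale (interval -0.26 to -0.06, adjusted p = 0.285). XBP1 had a log2 fold change of -0.14 (interval -0.25 to -0.02, adjusted p = 0.527), ATF6 -0.10 (interval -0.20 to 0.00), EIF2AK3 -0.12 (interval -0.25 to 0.02) and PPP1R15A 0.03 (interval -0.10 to 0.16). CREB3L1, called lower with UK5099, had 209, 205 and 191 CPM with CTPI2 against 206, 213 and 211 CPM in Sen(IR) (log2 fold change -0.06, interval -0.17 to 0.06). The third Sen(IR+CTPI2) library was the lowest of their group for HSPA5, HSP90B1, CALR, PDIA4 and P4HB, and the highest for DNAJB9 and ERN1.

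The direct comparison of both inhibitors on the same irradiated background tested whether their values differed. Doses differed (100 µM against 15 or 30 µM) and the targets differ, so the values describe these treatments only. In Sen(IR+UK5099) against Sen(IR+CTPI2), 6 members were called lower and 0 higher (11.7% and 8.20% of all genes), and 22 were negative and 1 positive at any fold (23.4% and 21.1% of all genes). SDF2L1 differed most (log2 fold change -1.03, SE 0.188, adjusted p = 0.000118), then DNAJB9 (log2 fold change -0.83, SE 0.0851, adjusted p = 5.49e-08), CREB3L1 (log2 fold change -0.81, SE 0.0554, adjusted p = 6.59e-11) and PDIA5 (log2 fold change -0.71, SE 0.0641, adjusted p = 7.17e-09). XBP1 (log2 fold change -0.66, SE 0.0542, adjusted p = 1.27e-09) and SEC61B (-0.66) completed the called genes. The single positive member past the edgeR test was CREB3L2 (0.16, adjusted p = 0.0414). That pass was lost with the replicate block (adjusted p = 0.0518) and without replicate 1 or 2 of Sen(IR+CTPI2) or replicate 1 or 3 of Sen(IR+UK5099) (edgeR adjusted p 0.0825 to 0.248).

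For the remaining members the size of the difference between the inhibitors was bounded by its interval. HSPA5 was lower with UK5099 by a value below the fold limit (log2 fold change -0.46, SE 0.0498, adjusted p = 1.25e-07), and ERN1 likewise (log2 fold change -0.40, SE 0.0885, adjusted p = 0.000925). ATF6 (-0.09, interval -0.19 to 0.01), EIF2AK3 (0.03, interval -0.10 to 0.16) and PPP1R15A (-0.06, interval -0.19 to 0.07) did not pass. DNAJB11 (-0.49) and P4HB (-0.47) lay under the fold limit and crossed it when single libraries were left out, both without the third Sen(IR+CTPI2) library (-0.55 and -0.504) and DNAJB11 also without the second Sen(IR+UK5099) library (-0.52).

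**Figure D4:**
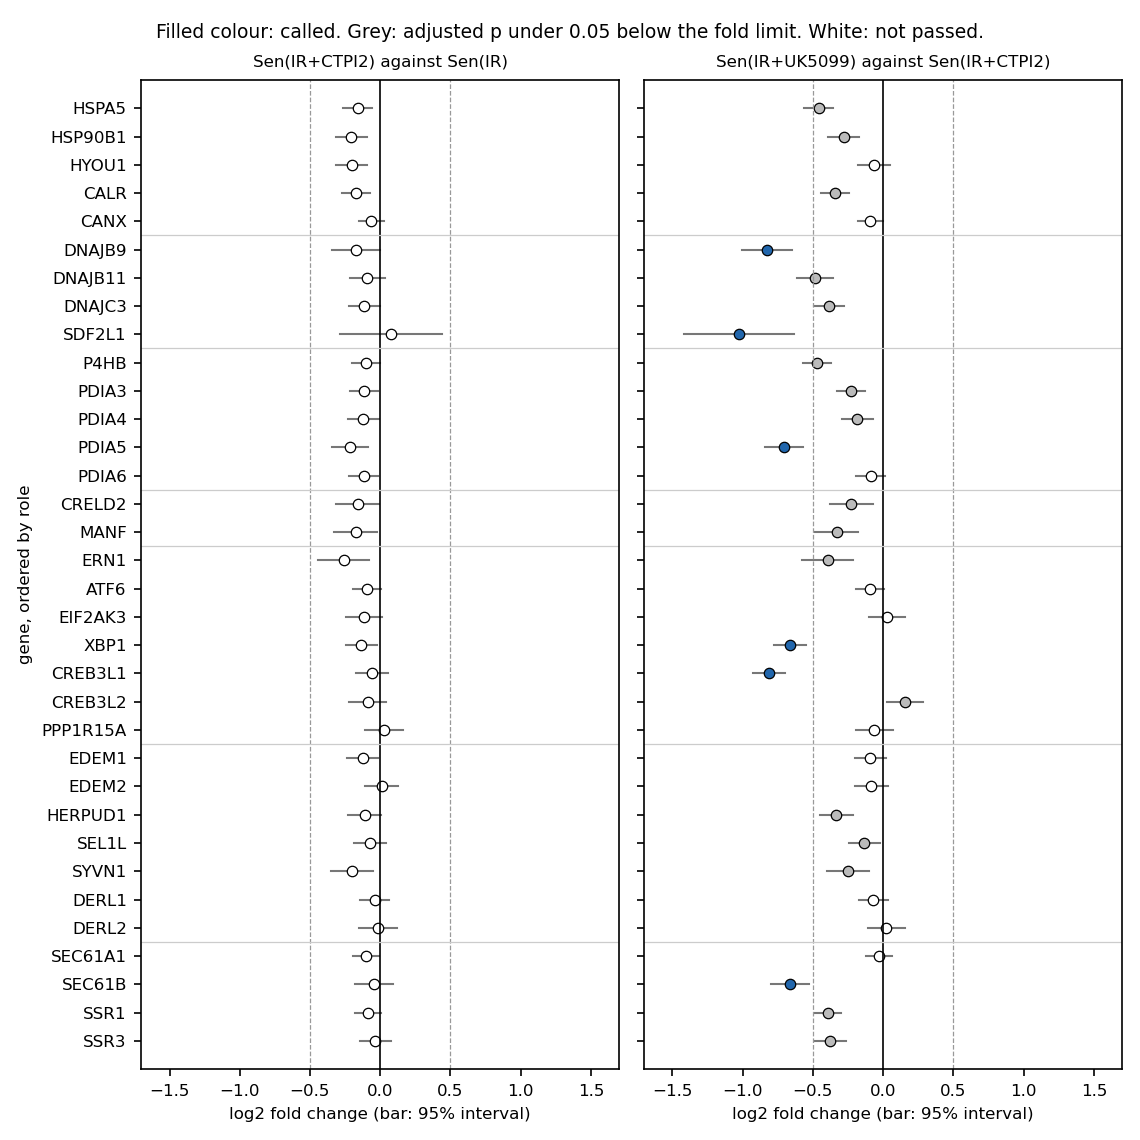
Log2 fold change of each tested member with its 95% interval in Sen(IR+CTPI2) against Sen(IR) and in Sen(IR+UK5099) against Sen(IR+CTPI2), on the same axis range and with the same dashed fold limit of 0.5. No point in the left panel is filled, since none passed the adjusted test and values run from -0.26 to 0.08, and the right panel holds 6 called falls.

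Members with an ERSE or ERSE-II in the promoter window can be set beside the other members with a window, as a description without a test. The 10 with a motif had a median log2 fold change of -0.31 in Sen(IR) against Prol, with 9 of 10 negative (HERPUD1 was the exception), and the 22 with neither motif a median of 0.25, with 10 of 22 negative. In Sen(IR+UK5099) against Sen(IR) the medians were -0.47 and -0.43, and in Sen(IR+CTPI2) against Sen(IR) -0.15 and -0.10. None of the 6 members called higher in Sen(IR) held either motif in its window, and among the 7 called lower only SDF2L1 did. Only exact matches of the letters were counted, so elements that differ from them in a letter would have been missed. The windows cover 300 bases, and elements outside them were not searched.

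Around these members stand 131 further genes of the ER pathway in 8 lists, of which 130 were tested. In Sen(IR) against Prol 39 were called higher and 14 lower (30% and 10.8%, against 24.8% and 22.4% of all genes), with a median log2 fold change of 0.24. The same shares of all genes stand beside the counts of each list, and no list was tested against them. Glycan trimming and lectin quality control had 6 of 13 called higher and 0 lower, led by MAN1B1, a mannosidase (1.39), and MCFD2, a cargo receptor subunit (1.23). The other oxidoreductases had 6 of 15 called higher and 0 lower, led by QSOX1 (1.57) and ERO1B (0.99). Of the prolyl isomerases, nucleotide exchange factors and the collagen chaperone, 6 of 14 were called higher, led by SIL1, an exchange factor of BiP (1.55), and FKBP10 (0.88), and 1 lower, the collagen chaperone SERPINH1 (-1.40).

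In the remaining lists calls went both ways. The oligosaccharyltransferase had 4 of 11 called higher, led by TUSC3 (0.81) and RPN2 (0.56), and 1 lower, the catalytic subunit STT3A (-0.78). The other catalytic subunit, STT3B, was not called lower. Other degradation genes had 3 of 19 higher, with FAM8A1 at 1.64, and 2 lower, UBE2J2 (-0.69) and RNF5 (-0.54). Signal recognition, translocation and signal peptidase genes had 7 of 21 higher, led by TRAM1 (1.16) and SEC62 (0.79), and 3 lower, led by TRAM2 (-1.18) and SSR2 (-0.80). COPII and cargo export genes had 3 of 18 higher, led by KDELR3 (0.69) and SAR1A (0.68), and 1 lower, SEC13 (-0.58).

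With UK5099, 18 of the 130 were called lower than in Sen(IR) and 0 higher (13.8%, against 12.1% of all genes called lower and 8.76% called higher). At any fold 84 passed the test with a negative value and 9 with a positive one (64.6% and 6.92%, against 23.5% and 21.9% of all genes), and the median was -0.22. The list of isomerases, exchange factors and the collagen chaperone had 14 of 14 negative and 4 called lower, led by FKBP14 (-0.84) and SERPINH1 (-0.71). STT3A (-0.69), UGGT2, a folding sensor of glycoproteins (-0.65), MCFD2 (-0.59), TMX1 (-0.70), SEC61G (-0.74) and the KDEL receptor KDELR3 (-1.17) were lower as well. Of the 19 other degradation genes 0 were called, with 3 positive and 7 negative past the test. With CTPI2, 0 of 130 were called, 98 of 130 values were negative with a median of -0.05, and 1 gene, CHAC1, passed the test below the fold limit (-0.43, adjusted p = 0.0348).

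**Figure D5:**
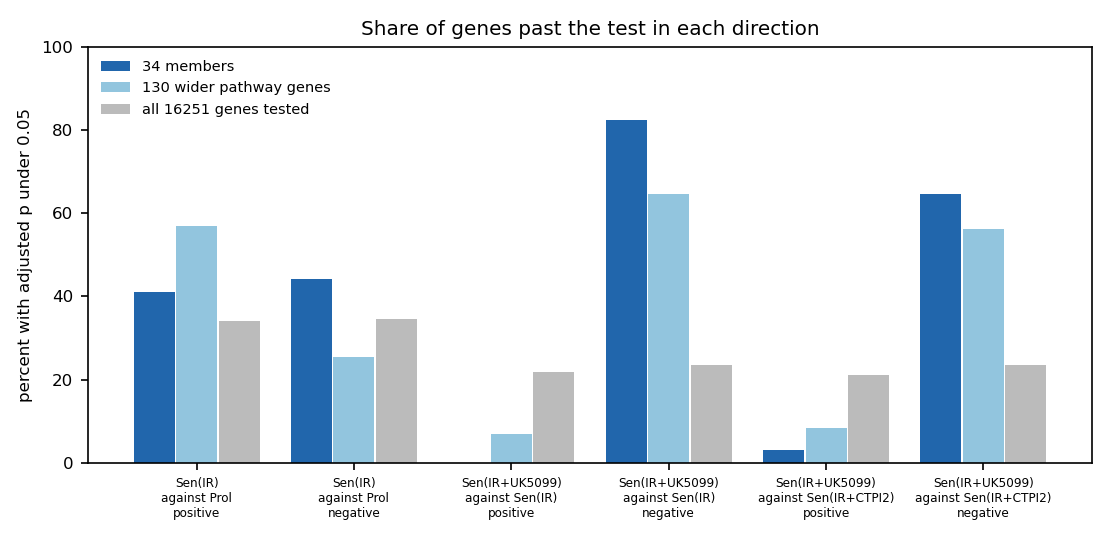
Percent of genes with an adjusted p below 0.05, at any fold, in the positive and in the negative direction for 3 comparisons, with bars from 0 for the 34 members, the 130 wider pathway genes and all 16251 genes tested. In Sen(IR+UK5099) against Sen(IR) the negative bars stand at 82.4% of members, 64.6% of wider pathway genes and 23.5% of all genes, and the positive bar of the members is at 0. The bars of all genes were not matched to the members by level.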

How the data were processed

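RNA of 12 MRC5 samples was sequenced as paired ends by a commercial provider. The submitters' processing notes name Trimmomatic 0.36, STAR 2.5.2b, featureCounts of Subread 1.5.2 and the build GRCh38, and the deposited table holds the raw counts per gene that the authors made, without normalization. Strandedness is not given in the sources used here. Of its 57500 genes, 23043 had no count, and 0 columns belonged to other samples. Groups came from the sample titles.

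Genes were filtered with filterByExpr in edgeR 4.0.16 (R 4.3.3, limma 3.58.1), which kept 16251 genes with 99.9% of counts, scaled by TMM and fitted over all 4 groups with the quasi-likelihood test (common dispersion 0.00374). Tests were two-sided, and p-values were adjusted over all genes tested in each comparison. Intervals are 95% intervals of the log2 fold change from that fit. RPKM used the merged length of all exons of a gene in GENCODE 44. On simulated counts for 15782 genes drawn as Sen(IR) against Prol, 200 of 200 genes changed by 2-fold were recovered with 0 false calls. The simulation gave every gene the common dispersion and changed no gene of the lowest levels. It checks that the code runs as meant and does not cover smaller changes or more variable genes. Alternatives were RLE and upper-quartile scaling, no filter, only the 2 groups compared, a replicate block, DESeq2 1.42.0, other fold limits and leaving out each library.

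Members and lists were chosen with earlier results of these data known. Full statistics were given for HSPA5, XBP1, ERN1, ATF6, EIF2AK3 and PPP1R15A and for up to 4 called members with the largest change in each direction, and in each wider list at most 2 genes were named in each direction. For the citrate carrier inhibitor, where no member was called, ERN1, PDIA5, HSP90B1, HYOU1, CALR and CREB3L1 were named after their values were seen, as were CHAC1 and the members near the fold limit. Promoter windows were from RefSeq. Protein features of the members were planned and not analysed here.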

Additional observations from a re-analysis of the deposited data

How the results depend on the processing

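Counts of called members kept within 1.5 times of their value under RLE scaling, DESeq2, no filter on low counts, the fit of only the 2 groups compared and each left-out library. Upper-quartile scaling gave 10 members higher in Sen(IR) than in Prol in place of 6, since it shifts the median of all genes from 0.01 to 0.14. At any fold the counts were 14 higher and 15 lower in Sen(IR) against Prol, 0 higher and 28 lower in Sen(IR+UK5099) against Sen(IR), 1 higher and 22 lower in Sen(IR+UK5099) against Sen(IR+CTPI2) and 8 higher and 20 lower in Sen(IR+UK5099) against Prol. With an absolute log2 fold change above 1 they were 4 higher and 1 lower, 0 higher and 1 lower, 0 higher and 1 lower, and 1 higher and 6 lower, for the same 4 comparisons in turn.

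Values near 0 changed sign. Upper-quartile scaling gave CANX 0.0944, DERL2 0.0265, PDIA3 0.0461 and SSR3 0.0297 in Sen(IR) against Prol, and DERL2 0.0505, DNAJC3 0.11 and P4HB 0.12 in Sen(IR+UK5099) against Prol. DERL2 in Sen(IR+UK5099) against Sen(IR) was -0.00085 under RLE scaling and under DESeq2, -0.0021 with only the 2 groups, and -0.0428 to 0.059 over left-out libraries. Over left-out libraries, DERL2 ran from -0.0440 to 0.0191, EDEM2 from -0.0193 to 0.0293 and SDF2L1 from -0.0377 to 0.221 in Sen(IR+CTPI2) against Sen(IR), and DERL2 from -0.0268 to 0.075 in Sen(IR+UK5099) against Sen(IR+CTPI2). The cause was not tested.

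Same-numbered libraries did not deviate together: of 18 such pairs 0 had a correlation above 0.1 (-0.0511 to 0.0423), and 5 of 12 libraries correlated best with their own number. With the replicate block the calls numbered 6 higher and 7 lower in Sen(IR) against Prol, 12 lower in Sen(IR+UK5099) against Sen(IR) and 0 in Sen(IR+CTPI2) against Sen(IR), as without it.

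At 3 libraries a group the intervals of most members reach about 0.1 on either side of the log2 fold change, wider for SDF2L1 and ERN1. These intervals are not adjusted for the number of genes tested, and the adjusted test could miss larger differences. In Sen(IR+CTPI2) against Sen(IR), HSP90B1 at -0.21 (edgeR adjusted p = 0.123) and ERN1 at -0.26 (edgeR adjusted p = 0.351) did not pass. Values of CALR, MANF and DNAJC3 in Sen(IR+UK5099) against Sen(IR) and of HERPUD1 in Sen(IR) against Prol lay near the fold limit, and the calls of CRELD2, HYOU1, PDIA6 and SSR3 in Sen(IR+UK5099) against Prol were lost under at least 1 other setting. How the reads were trimmed, aligned and counted was fixed by the authors.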

Other observations

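The regulators of the UPR outside the members were a list of 20 genes, of which 19 were tested. They held targets of the PERK and ATF4 arm beside other regulators. In Sen(IR) against Prol 4 were called higher and 6 lower (21.1% and 31.6%, against 24.8% and 22.4% of all genes). WFS1, an ER membrane protein that restrains ATF6, had 60.3, 53.8 and 55.7 CPM in Prol and 193, 189.8 and 181 CPM in Sen(IR) (log2 fold change 1.73, SE 0.058, adjusted p = 4.01e-17), and the stress factor ATF3 had 13.5, 14.5 and 14.1 CPM and 41.5, 42.4 and 41.1 CPM (log2 fold change 1.57, SE 0.0663, adjusted p = 2.48e-15). Neither gene's groups overlapped. TRAF2, which couples IRE1 to kinase signalling (-0.97), and PPP1R15B, the constitutive counterpart of PPP1R15A (-0.83), were the lowest of the called genes.

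With UK5099 7 of these 19 were called lower than in Sen(IR) and 0 higher (36.8% lower, against 12.1% of all genes). CHAC1, a glutathione-degrading enzyme induced through ATF4, had 24.5, 23.9 and 26.2 CPM in Sen(IR), 17.7, 20.3 and 17.5 CPM in Sen(IR+CTPI2) and 7.16, 5.41 and 5.23 CPM in Sen(IR+UK5099), 3 ranges that did not overlap (log2 fold change -2.07, SE 0.104, adjusted p = 2.72e-13). DDIT4, an inhibitor of mTORC1 signalling induced by stress, had 23.0, 25.9 and 25 CPM in Sen(IR) and 9.48, 10.8 and 10.8 CPM in Sen(IR+UK5099) (log2 fold change -1.25, SE 0.187, adjusted p = 9.54e-06), and its Prol libraries were widely spread (9.81, 23.1 and 12.5 CPM).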
